A study of Mus musculus and Homo sapiens with 65 samples.

Results

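The 59 genes described here encode proteins that build ribosomes in the nucleolus, and they were taken by symbol from the 32287 genes of each expression table. All 59 symbols were present. As classed here, they comprise 3 proteins of the box C/D small nucleolar particle, 4 of the H/ACA particle, 5 nucleolar scaffold proteins, 27 small subunit factors and 20 large subunit factors. Their levels were read in 9 RNA-seq libraries of late 2-cell mouse embryos, out of 65 samples in a series on histone marks and DNA methylation in oocytes and early embryos. There were 2 libraries from embryos labelled alpha-amanitin, 2 from zygotes injected with morpholinos against Kdm5a and Kdm5b, 2 from zygotes injected with control morpholinos carrying 5 mismatched bases, and 3 from wild-type embryos. Kdm5a and Kdm5b encode demethylases of histone H3 lysine 4, and alpha-amanitin is a fungal inhibitor of RNA polymerase II. Neither the dose nor the timing of alpha-amanitin, nor the mouse strain of these embryos, is stated in the labels, and all embryos were grown in the same culture medium.

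Ribosomal RNA is transcribed in the nucleolus as a long precursor that is then cut, chemically modified and folded onto ribosomal proteins. Box C/D particles guide ribose methylation and H/ACA particles guide pseudouridylation of that precursor, while the U3-containing processome cuts out the small subunit RNA and a separate set of factors matures the large subunit. In the mouse, the embryo's own genome is broadly switched on at the 2-cell stage, when nucleolus-like bodies inherited from the oocyte begin to turn into working nucleoli.

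Levels are given as FPKM, which corrects fragment numbers for the length of the transcript and the size of the library, so genes can be ranked against each other. In wild-type embryos the members spanned a wide range, with a median of the 59 wild-type means at 21.2 FPKM. Imp4, a subunit of the U3 processome, had the highest wild-type mean at 260 ± 52 FPKM (SD, n = 3). It was followed by the H/ACA protein gene Gar1 at 132 ± 14 FPKM, the processome methyltransferase gene Emg1 at 119 ± 47 FPKM, and Ncl, which encodes nucleolin, at 108 ± 22 FPKM. The lowest was Tsr2, a small subunit factor, at 0.464 ± 0.43 FPKM. Fbl, which encodes the methyltransferase of the box C/D particle, stood at 0.534, 0.726 and 2.33 FPKM, although its particle partners Nop58 and Nop56 averaged 75.2 ± 5.7 and 57.2 ± 7.6 FPKM. The levels of mRNAs of one particle were therefore far from equal in these files.

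**Figure D1:**
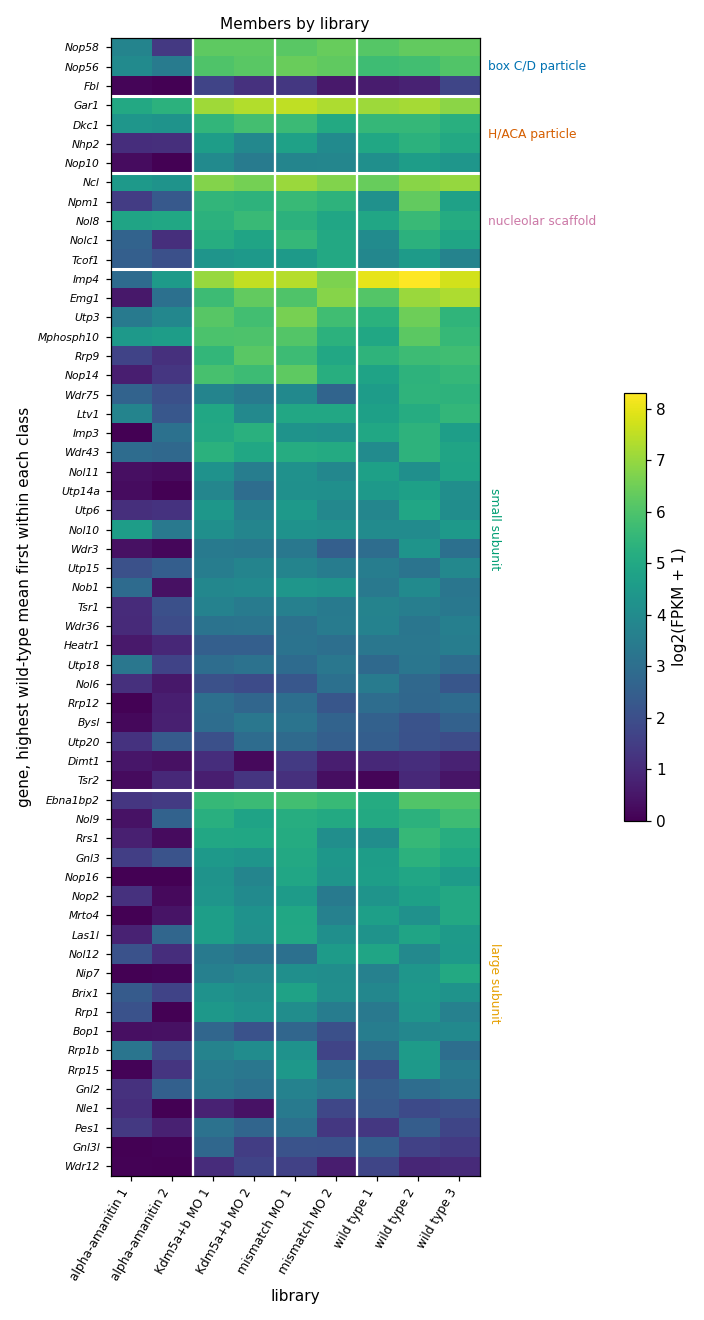
Heat map of the 59 members (down) in the 9 libraries (across), coloured by log2(FPKM + 1), with lines between the 5 classes and the 4 groups. The 2 alpha-amanitin columns are dark for most genes, and Gar1, Nol8, Mphosph10, Ncl and Dkc1 have the highest means there.

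Sequence upstream of the members is described here before their levels are compared, and a link between the 2 was not tested. RefSeq promoters (assembly GRCm38.p6) were found for 48 of the 59 members, in 52 windows running from 250 bases before to 50 bases after the annotated start. The E-box CACGTG, a site that Myc and its relatives can bind, occurred in 21.2% of the member windows, in 9.8% of 11334 windows of all genes tested and in 7.2% of 32851 windows of all genes. The ETS-type motif CCGGAAG, read on both strands, occurred in 36.5% of member windows, 16.9% of windows of tested genes and 8.9% of all windows. Other promoter letters lay close to the tested genes, since GGGCGG was in 63.5% against 60.5% of windows, CCAAT in 38.5% against 38.7%, TATAAA in 7.7% against 7.2%, and the NRF1 motif in 9.6% against 9.7%. The YY1-type motif AANATGGCG was in 7.7% against 4.9%, and the ZNF143 motif in 5.8% against 1.9%. The ZNF143 motif was added to the search after the sequences had been seen. Member windows had a median GC content of 58.8% against 60.7% for tested genes and 52.7% for all windows. The median ratio of CG pairs observed to those expected from base content was 0.831, against 0.75 for tested genes and 0.384 for all windows. CACGTG and CCGGAAG both contain a CG pair, and the windows compared were not matched for base composition. Both strands were read for every motif, and each motif was counted on its own, wherever another overlapped it. A match is a string of letters in a window and says nothing of a bound factor.

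Upstream windows of 250 bases are printed for 6 members, 5′ to 3′ toward the gene's start, with E-box, ETS-type and ZNF143 matches in capitals. Nop2, a large subunit methyltransferase gene, has an E-box and an ETS-type match close to its start (chr6:125131633-125131882, plus strand).
Nop2: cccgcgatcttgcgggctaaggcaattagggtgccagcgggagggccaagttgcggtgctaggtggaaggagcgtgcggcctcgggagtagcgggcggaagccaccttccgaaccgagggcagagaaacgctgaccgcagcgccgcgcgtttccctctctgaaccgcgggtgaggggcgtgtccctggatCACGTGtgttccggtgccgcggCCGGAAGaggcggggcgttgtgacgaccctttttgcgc
Utp18, a processome gene whose level was not called lower with alpha-amanitin, has both as well (chr11:93885767-93886016, minus strand).
Utp18: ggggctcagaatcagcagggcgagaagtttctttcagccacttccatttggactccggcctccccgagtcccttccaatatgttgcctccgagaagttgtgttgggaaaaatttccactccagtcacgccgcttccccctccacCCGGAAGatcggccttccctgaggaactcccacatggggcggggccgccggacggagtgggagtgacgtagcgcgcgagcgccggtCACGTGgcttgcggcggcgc
Imp4, the member with the highest wild-type level, has an E-box (chr1:34439579-34439828, plus strand).
Imp4: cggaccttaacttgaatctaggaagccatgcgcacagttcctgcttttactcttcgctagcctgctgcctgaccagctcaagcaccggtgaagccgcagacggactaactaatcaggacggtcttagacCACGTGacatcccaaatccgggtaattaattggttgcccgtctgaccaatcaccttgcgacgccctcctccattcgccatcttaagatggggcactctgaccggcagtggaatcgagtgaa
Nop16 (chr13:54590075-54590324, minus strand) and Nop10 (chr2:112261676-112261925, plus strand), both at or near 0 with alpha-amanitin, hold the ZNF143 letters, and so does Dimt1, which was not called.
Nop16: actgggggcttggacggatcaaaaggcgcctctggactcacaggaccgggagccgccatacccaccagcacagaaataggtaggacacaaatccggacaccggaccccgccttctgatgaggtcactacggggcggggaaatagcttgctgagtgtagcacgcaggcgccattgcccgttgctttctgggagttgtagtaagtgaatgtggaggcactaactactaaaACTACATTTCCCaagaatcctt
Nop10: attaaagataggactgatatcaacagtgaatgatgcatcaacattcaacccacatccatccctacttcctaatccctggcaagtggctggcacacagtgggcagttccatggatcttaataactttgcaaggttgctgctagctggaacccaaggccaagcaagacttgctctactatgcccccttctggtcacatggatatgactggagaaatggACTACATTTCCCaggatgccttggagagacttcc
Nol8, classed here with the scaffold genes and not called lower with alpha-amanitin, has none of the 3 motifs (chr13:49652828-49653077, plus strand).
Nol8: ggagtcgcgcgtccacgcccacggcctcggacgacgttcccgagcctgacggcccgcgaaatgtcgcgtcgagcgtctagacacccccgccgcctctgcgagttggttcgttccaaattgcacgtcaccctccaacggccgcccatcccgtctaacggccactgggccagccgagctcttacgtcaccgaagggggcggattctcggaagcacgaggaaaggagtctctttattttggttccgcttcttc
An E-box was present in 6 of the 37 matched members that fell with alpha-amanitin and in 5 of the 11 that were not called, and the ETS-type motif in 16 of 37 and 3 of 11, and the ZNF143 motif in 2 of 37 and 1 of 11. These counts are a description and were not tested.

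Alpha-amanitin embryos were first compared with wild-type embryos. A lower level in this comparison does not by itself show that a message needs transcription by the embryo. Of the 59 members, 46 fell, none rose and 13 were not called, as tested with limma on log2(FPKM + 1) with Benjamini-Hochberg adjustment over all 13137 genes that reached 1 FPKM in at least 2 libraries. That is 78.0% of members, whereas 25.1% of all genes tested were lower and 4.31% higher in the same comparison. The median difference was -2.50 over the members and -0.56 over all genes tested, on the log2(FPKM + 1) scale, which understates the change of genes with low levels. Since FPKM is relative to each library's total, quantile normalization was also run. It moved the median of all genes to 0.17, with 1806 genes lower and 1716 higher, and left 34 members lower and none higher. In 51 members (86.4%) both alpha-amanitin libraries lay below all 3 wild-type libraries, as in 41.1% of genes tested. In 49 (83.1%) they lay below all 7 other libraries, as in 34.5% of genes tested. A level here is a share of a library's RNA, so fewer cells holding an mRNA and less of it per cell cannot be told apart. Words such as fell, rose, kept and left compare groups of the same stage. They do not describe a change over time, since no earlier stage is among these libraries.

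Summed over the 59 members, the level was 284 and 278 FPKM in alpha-amanitin libraries, against 1514, 2169 and 1856 FPKM in wild-type libraries. That sum was 0.144% and 0.132% of all FPKM with alpha-amanitin, and 0.693%, 0.935% and 0.811% in wild type. The number of members at 1 FPKM or more was 35 and 36 with alpha-amanitin and 56 in each wild-type library. The mean alpha-amanitin level of the median member was 11.8% of its wild-type mean, against 48.4% for the median gene tested. Without the 11 members listed at 0 in 1 or both alpha-amanitin libraries the member median was 13.4%. The deposited status was OK for every member in all 9 libraries, so no member value of 0 was flagged as a failed estimate. That status does not show that the mRNA was absent. Genes listed at 0 get no fold or mean ± SD of their own, and their fitted differences depend on the pseudocount.

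**Figure D2:**
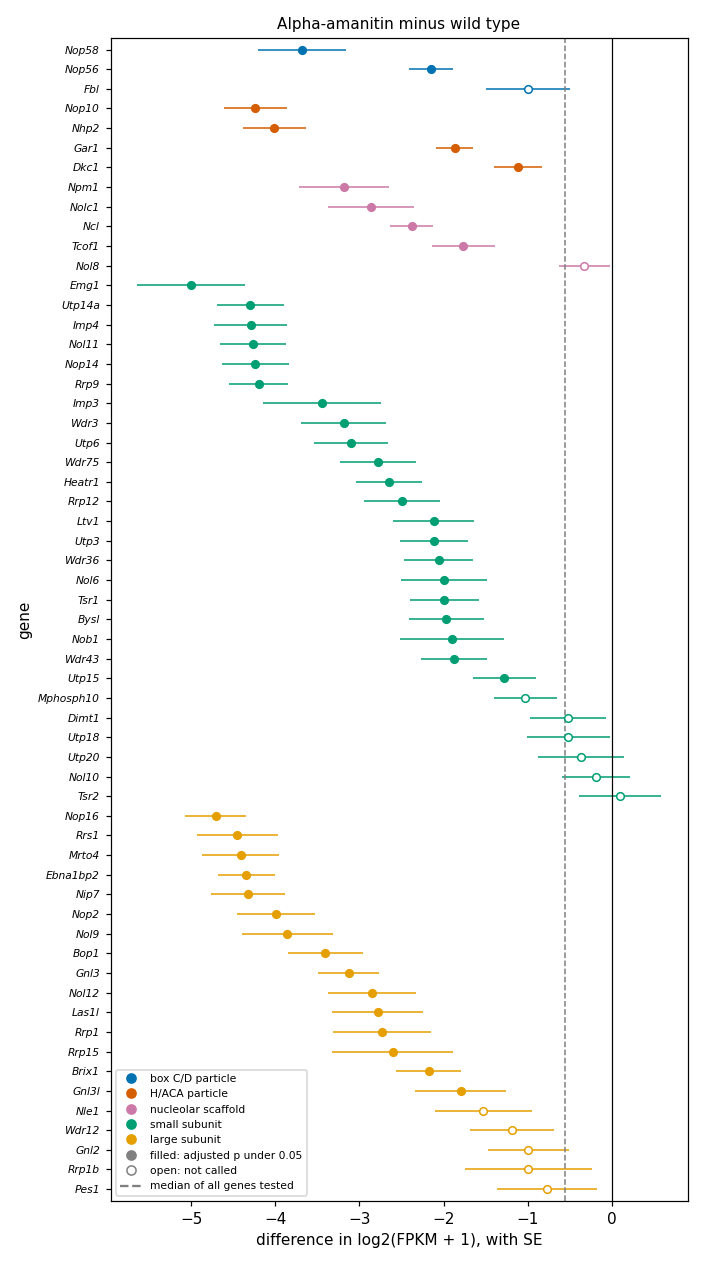
Difference in log2(FPKM + 1), alpha-amanitin minus wild type, for each member with its SE, grouped by class; filled points passed the limma test and the dashed line is the median of all 13137 genes tested, -0.56. The points run from -5.00 for Emg1 to 0.10 for Tsr2, and every filled point is left of the dashed line.

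The mRNAs of Nop58 and Nop56, scaffold proteins of the box C/D particle, fell. Nop58 was at 12.3 and 1.62 FPKM in alpha-amanitin libraries, against 68.6, 78.7 and 78.2 FPKM in wild-type libraries. Its paralog and partner Nop56 was at 14.7 and 9.87 FPKM with alpha-amanitin and 51.4, 54.5 and 65.8 FPKM in wild type. The groups were separate for both genes, but the 2 alpha-amanitin libraries differed 7.59 times in Nop58 and 1.49 times in Nop56. On the log2 scale Nop58 differed by -3.68 (SE 0.52, limma adjusted p = 0.000438) and Nop56 by -2.15 (SE 0.26, limma adjusted p = 0.000164). Fbl was at 0.073 FPKM in alpha-amanitin replicate 1 and listed at 0 in replicate 2, against the low wild-type levels given above, and was not called (-0.997, SE 0.50, limma adjusted p = 0.161). With a pseudocount of 0.1 in place of 1, Fbl was called lower, with limma adjusted p = 0.0385, and over all alternatives this p ran up to 0.591.

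The mRNAs of all 4 H/ACA core proteins fell. Nop10, the smallest of the core proteins, was at 0.201 FPKM and listed at 0 in the alpha-amanitin libraries, against 16.5, 23.5 and 19.6 FPKM in wild type. Nhp2 was at 1.11 and 1.15 FPKM with alpha-amanitin, against 30.0, 39.4 and 31.3 FPKM in wild type, which is 29.7-fold lower. Gar1 kept the highest level of all members with alpha-amanitin, 31.2 and 39.8 FPKM, against 135, 144 and 117 FPKM in wild type, 3.72-fold lower. Dkc1, the pseudouridine synthase itself, was at 19.7 and 18.2 FPKM with alpha-amanitin and at 45.5, 45.1 and 36.6 FPKM in wild type, 2.24-fold lower. None of these 4 genes overlapped between the groups. The log2 differences were -4.24 (SE 0.37) for Nop10, -4.01 (SE 0.37) for Nhp2, -1.87 (SE 0.22) for Gar1 and -1.12 (SE 0.29) for Dkc1. The limma adjusted p-values were 2.02e-05, 2.79e-05, 0.000124 and 0.0139 in that order. The call of Dkc1 was lost under quantile normalization, where limma adjusted p was 0.107, and without alpha-amanitin replicate 2.

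Of the 5 genes classed as nucleolar scaffold 4 fell. Nucleolin (Ncl), an RNA-binding protein that is among the most abundant in the nucleolus, was at 21.0 and 18.2 FPKM with alpha-amanitin and 82.9, 113 and 127 FPKM in wild type (-2.38, SE 0.26, limma adjusted p = 6.78e-05). Npm1, which encodes nucleophosmin of the outer granular zone, was at 1.77 and 4.02 FPKM with alpha-amanitin, against 17.4, 77.6 and 25.8 FPKM in wild type. Its wild-type libraries differed 4.45 times, yet the lowest stood above both alpha-amanitin libraries (-3.18, SE 0.54, limma adjusted p = 0.00134). Nolc1, a chaperone that carries both kinds of small nucleolar particle, was at 5.30 and 1.18 FPKM with alpha-amanitin and 15.2, 39.7 and 28.7 FPKM in wild type (-2.86, SE 0.51, limma adjusted p = 0.0018). Tcof1, whose product treacle links ribosomal gene transcription to processing, averaged 3.87 ± 1.1 FPKM with alpha-amanitin (SD, n = 2) and 15.9 ± 5.6 FPKM in wild type (SD, n = 3), and fell. Nol8 was at 27.6 and 29.6 FPKM with alpha-amanitin and 28.9, 48.5 and 33.6 FPKM in wild type, so the groups overlapped (-0.33, SE 0.30, limma adjusted p = 0.445). It ranked second of the 59 members by level with alpha-amanitin and 15th in wild type.

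Of the 27 small subunit genes, 21 fell and 6 were not called, with a median difference of -2.12. Within the processome all 5 UtpA genes fell (Heatr1, Nol11, Utp15, Wdr43 and Wdr75), as did 3 of 4 listed with UtpB (Utp6, Wdr3 and Wdr36) and 4 of 5 genes of the U3 and Mpp10 modules. Utp15, Wdr43 and Wdr36 lost the call with quantile normalization. Utp15 also lost it with only the 2 groups fitted, with the replicate block, and without alpha-amanitin replicate 1 or wild-type replicate 3. Imp4 was at 6.49 and 22.0 FPKM with alpha-amanitin, against 253, 316 and 212 FPKM in wild type (-4.29, SE 0.43, limma adjusted p = 4.26e-05). Emg1, which modifies the small subunit RNA, had a difference of -5.00 (SE 0.64, limma adjusted p = 0.000224), which ran from -6.27 to -3.74 when a library was left out. Its levels were 0.458 and 7.46 FPKM with alpha-amanitin and 66.7, 133 and 157 FPKM in wild type, so the 2 alpha-amanitin libraries differed 16.3 times from each other. Utp14a was at 0.207 FPKM and listed at 0 with alpha-amanitin, against 21.2, 25.2 and 16.3 FPKM in wild type (-4.30, SE 0.40, limma adjusted p = 2.74e-05). Utp3 had a smaller difference, with 9.40 and 13.5 FPKM with alpha-amanitin and 38.5, 88.3 and 41.9 FPKM in wild type (-2.12, SE 0.40, limma adjusted p = 0.00277). Leaving aside Nob1, described below, the other 16 small subunit genes that fell had differences from -4.26 for Nol11 to -1.28 for Utp15, both of UtpA. Nol11 was at 0.271 and 0.193 FPKM with alpha-amanitin and 25.3, 16.7 and 27.4 FPKM in wild type, whereas Utp15 was at 3.16 and 4.53 FPKM with alpha-amanitin and 10.5, 8.27 and 13.7 FPKM in wild type. Both genes had separate groups. The 7 factors of late small subunit maturation had a median difference of -1.97, and 5 of them fell. With quantile normalization Bysl, Ltv1, Nob1 and Tsr1 were no longer called, which left Rrp12, and Bysl and Ltv1 each lost the call without 1 of the alpha-amanitin libraries. One of the 5, the nuclease gene Nob1, was only just called (limma adjusted p = 0.0416). It was lost in most of the alternative settings, and its alpha-amanitin libraries were 6.46 and 0.281 FPKM.

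Of the 20 large subunit genes, 15 fell and 5 were not called, with a median difference of -2.82 (-2.78 without Nop16). Neither alpha-amanitin library listed Nop16 above 0, and it was at 24.0, 29.1 and 22.8 FPKM in wild type (limma adjusted p = 8.2e-06, the smallest of the members). Ebna1bp2, which encodes an assembly factor of the early large subunit and the most abundant of the large subunit genes here, was at 1.51 and 1.70 FPKM with alpha-amanitin, against 33.6, 65.0 and 63.7 FPKM in wild type (-4.35, SE 0.34, limma adjusted p = 9.3e-06). Rrs1, which helps load 5S ribosomal RNA in yeast, was at 0.665 and 0.177 FPKM with alpha-amanitin and at 15.9, 46.7 and 34.8 FPKM in wild type (-4.45, SE 0.48, limma adjusted p = 6.95e-05). The 3 genes had alpha-amanitin levels under 2 FPKM in both libraries. Another 6 large subunit genes fell, with differences from -4.41 for Mrto4 to -2.18 for Brix1. Among them Nop2, whose promoter is printed above, was at 1.26 and 0.157 FPKM with alpha-amanitin, against 18.9, 25.5 and 31.3 FPKM in wild type (-3.99, SE 0.46, limma adjusted p = 0.000109). Rrp15, also among these 6, was less firmly called (limma adjusted p = 0.02). Its libraries differed 26.6 times with alpha-amanitin and 6.76 times in wild type. Its call was lost with a pseudocount of 5, no filter, quantile normalization, only the 2 groups fitted or the replicate block. It was also lost without wild-type replicate 2 or 3.

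Nol9 and Las1l, the kinase and the nuclease that together open the second internal spacer of the precursor, both fell. Nol9 was at 0.333 and 5.11 FPKM with alpha-amanitin, against 32.2, 39.2 and 52.0 FPKM in wild type (-3.86, SE 0.54, limma adjusted p = 0.000397). Las1l was at 0.720 and 5.67 FPKM with alpha-amanitin and 18.1, 28.2 and 21.8 FPKM in wild type (-2.78, SE 0.54, limma adjusted p = 0.00299). In both genes replicate 2 was the higher of the alpha-amanitin libraries, by 15.4 and 7.87 times. Across the 48 members above 0 in both of them, 19 differed by more than 3 times between these libraries, 9 with replicate 1 higher and 10 with replicate 2 higher.

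The PeBoW complex joins Pes1, Bop1 and Wdr12 in large subunit processing, and 1 of its 3 genes was called. Bop1 fell, at 0.276 and 0.310 FPKM with alpha-amanitin against 10.4, 13.5 and 14.5 FPKM in wild type (-3.40, SE 0.44, limma adjusted p = 0.000246). Pes1 was at 1.62 and 0.696 FPKM with alpha-amanitin and 1.54, 4.47 and 2.34 FPKM in wild type, with overlapping groups (limma adjusted p = 0.36). Wdr12 was at 0.0253 FPKM and listed at 0 with alpha-amanitin, and at 2.34, 0.839 and 0.984 FPKM in wild type (limma adjusted p = 0.0986). Both uncalled genes had wild-type means under 3 FPKM, where the added pseudocount weighs most, and Wdr12 was called lower with a pseudocount of 0.1 (limma adjusted p = 0.0147).

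Paralog pairs also differed in level. Gnl3, which encodes the nucleolar GTPase nucleostemin, was at 1.94 and 3.33 FPKM with alpha-amanitin, against 23.4, 39.0 and 30.1 FPKM in wild type (-3.13, SE 0.36, limma adjusted p = 0.000112). Its paralog Gnl3l was listed at 0 and at 0.0531 FPKM with alpha-amanitin, against 4.6, 2.05 and 1.64 FPKM in wild type (-1.79, SE 0.54, limma adjusted p = 0.0296), and lost its call in 6 settings given in the closing section. Rrp1 was at 3.30 FPKM and listed at 0 with alpha-amanitin, against 9.25, 19.4 and 11.6 FPKM in wild type (-2.73, SE 0.58, limma adjusted p = 0.00524). Its paralog Rrp1b was at 8.36 and 2.55 FPKM with alpha-amanitin and 7.01, 22.3 and 7.07 FPKM in wild type, which overlap (limma adjusted p = 0.351). The difference between paralogs was not tested.

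**Figure D3:**
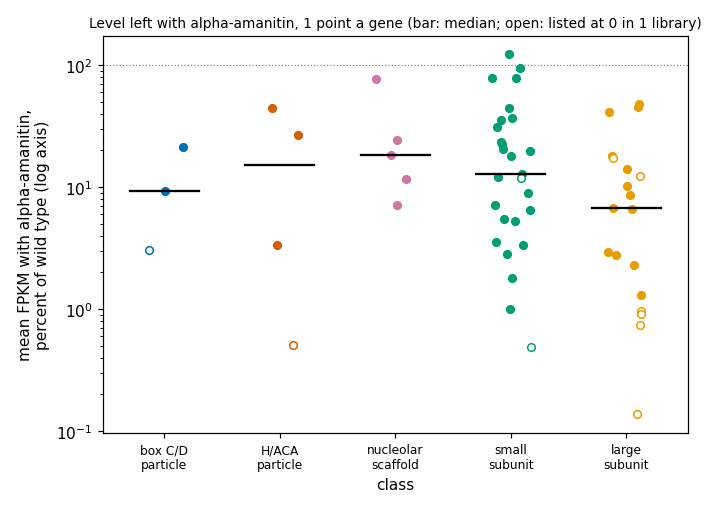
Mean alpha-amanitin FPKM of each member as a percent of its wild-type mean, on a log axis, by class; bars are class medians, open points were listed at 0 in 1 alpha-amanitin library, and Nop16, listed at 0 in both, is not drawn. Medians are 9.29% for the box C/D particle, 15.1% for the H/ACA particle, 18.2% for scaffold genes, 12.8% for the small subunit and 6.75% for the large subunit.

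Set side by side, the summed level left with alpha-amanitin was 7.8% of wild type for the large subunit genes, 13.5% for the small subunit, 14.5% for box C/D, 24.4% for H/ACA and 25.5% for scaffold genes. The H/ACA value rests on Gar1 and Dkc1, the 2 members of that particle with the highest levels, and the scaffold value on Ncl and Nol8. Nol8 alone had means of 28.6 FPKM with alpha-amanitin and 37.0 FPKM in wild type. The large subunit class summed to 29.8 and 383 FPKM, so the class values depend on where Nol8 is placed. Sums with Nol8 in another class were not made. In the large subunit class 11 of 20 genes were left at under 10%, with Nop16 at 0 beside them, and in the small subunit class 11 of 27. Over all classes 28 members (47.5%) were left at under 10% or at 0, beside 26.6% of genes tested. Among genes classed as large subunit, Gnl2 kept most of its wild-type mean, at 47.6%. Differences between classes were not tested.

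The 13 genes that were not called fall into several kinds by their values. Nol8, Nol10, Utp18 and Utp20 kept between 77.4% and 94.6% of their wild-type means. Nol10, a processome protein gene, was at 23.5 and 9.25 FPKM with alpha-amanitin, against 15.1, 15.2 and 21.7 FPKM in wild type. Utp18 was at 8.90 and 2.20 FPKM with alpha-amanitin, against 6.08, 8.58 and 6.69 FPKM in wild type, and Utp20, a giant scaffold of the processome, at 1.30 and 4.24 FPKM, against 4.53, 3.26 and 2.81 FPKM. In these last 3 genes the alpha-amanitin libraries lay on both sides of the wild-type mean, and the sign of the difference turned when 1 of those libraries was left out. Mphosph10, the large partner of Imp3 and Imp4, was at 21.1 and 23.6 FPKM with alpha-amanitin, against 29.5, 73.7 and 46.2 FPKM in wild type, and missed the threshold (-1.03, SE 0.38, limma adjusted p = 0.0638). Its alternatives gave limma adjusted p-values from 0.0184, without wild-type replicate 1, to 0.203.

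Gnl2, a GTPase gene of the large subunit, was at 1.30 and 4.87 FPKM with alpha-amanitin, against 4.45, 6.86 and 8.11 FPKM in wild type (-0.99, SE 0.48, limma adjusted p = 0.148), and was called lower without alpha-amanitin replicate 2 (limma adjusted p = 0.0481). Nle1, whose yeast counterpart works on the pre-60S particle, was at 1.12 FPKM and listed at 0 with alpha-amanitin, against 3.94, 2.67 and 3.05 FPKM in wild type (-1.53, SE 0.58, limma adjusted p = 0.073), and was called lower with a pseudocount of 0.1 and without mismatch replicate 1. Dimt1, a methyltransferase gene of the small subunit, was at 0.416 and 0.282 FPKM with alpha-amanitin, against 0.943, 1.13 and 0.750 FPKM in wild type. Tsr2 was at 0.189 and 0.960 FPKM with alpha-amanitin, against 0.0900, 0.930 and 0.371 FPKM in wild type, and was the single member with a positive difference, 0.10 (SE 0.49, limma adjusted p = 0.893). Dimt1 and Tsr2 were close to the detection filter in all groups, so a change in them was hard to see in these libraries.

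**Figure D4:**
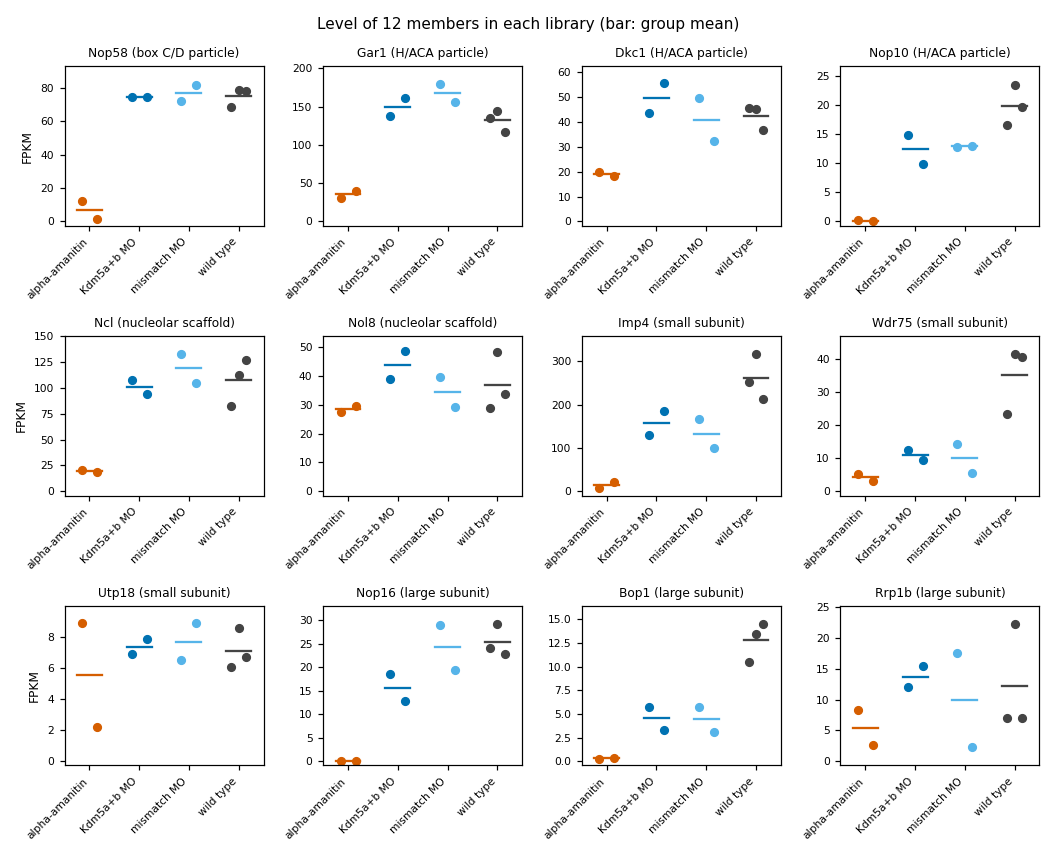
FPKM of 12 members in each library, with a point per library and a bar at the group mean; groups run from alpha-amanitin on the left to wild type on the right. Nop10 and Nop16 are at or near 0 with alpha-amanitin, Nol8 and Utp18 overlap with the other groups, and Wdr75 and Bop1 are lower in all 4 morpholino libraries than in wild type.

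Against mismatch morpholino embryos instead, 47 of the 59 members were lower with alpha-amanitin and none higher (79.7%), where 21.5% of all genes tested were lower and 2.36% higher. The median member difference was -2.51. This comparison uses the same alpha-amanitin libraries as the one with wild type, so the counts are not independent. Nle1 and Gnl2, not called against wild type, were called here, and Wdr75 was called against wild type only. Wdr75, a UtpA protein gene, was at 5.30 and 3.12 FPKM with alpha-amanitin, 12.3 and 9.50 FPKM after Kdm5a+b injection, 14.4 and 5.43 FPKM with mismatch morpholinos, and 23.3, 41.4 and 40.4 FPKM in wild type. The count of 47 became 31 when mismatch replicate 1 was left out.

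The Kdm5a+b morpholino embryos were then compared with mismatch morpholino embryos, which asks what morpholinos against the 2 demethylases do to these levels. Kdm5a mRNA was at 19.5 and 15.3 FPKM after Kdm5a+b injection and 12.8 and 9.44 FPKM with mismatch morpholinos, and Kdm5b mRNA at 38.1 and 27.6 FPKM against 55.3 and 39.6 FPKM. Morpholinos can act on translation alone, so mRNA levels say little about the remaining protein. No member was called in either direction by limma with Benjamini-Hochberg adjustment, and neither was any of the 13137 genes tested (0%). Without adjustment, 1 member and 414 of all genes had p under 0.05. None of the alternatives called a member, while the fit without a filter called 10 genes lower and 17 higher among all genes. The member median was -0.09, beside 0.00 for all genes tested, and the 5 class medians lay between -0.23 for scaffold genes and -0.04 for the small subunit. Each of these medians changed sign when some library was left out, with a range from -0.38 to 0.17 for the large subunit and from -0.17 to 0.10 for the small subunit.

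The member with the smallest unadjusted p was Nle1. It was at 0.726 and 0.339 FPKM after Kdm5a+b injection and 9.66 and 2.44 FPKM with mismatch morpholinos (-1.99, SE 0.64, limma adjusted p = 1), and the libraries did not overlap. In wild type Nle1 stood between them, at 3.94, 2.67 and 3.05 FPKM. Utp14a was next, at 13.0 and 6.76 FPKM after Kdm5a+b injection and 17.0 and 16.7 FPKM with mismatch morpholinos (-0.78, SE 0.44, limma adjusted p = 1). Nop16 was at 18.4 and 12.9 FPKM after Kdm5a+b injection and 29.0 and 19.3 FPKM with mismatch morpholinos (-0.59, SE 0.39, limma adjusted p = 1). In 12 members (20.3%) both Kdm5a+b libraries were below both mismatch libraries and in 2 (3.39%), Imp3 and Rrp1, above them, beside 16.8% and 16.5% of genes tested. With 2 libraries a group these data could not show a small change, and a p that misses the threshold does not show equal levels.

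**Figure D5:**
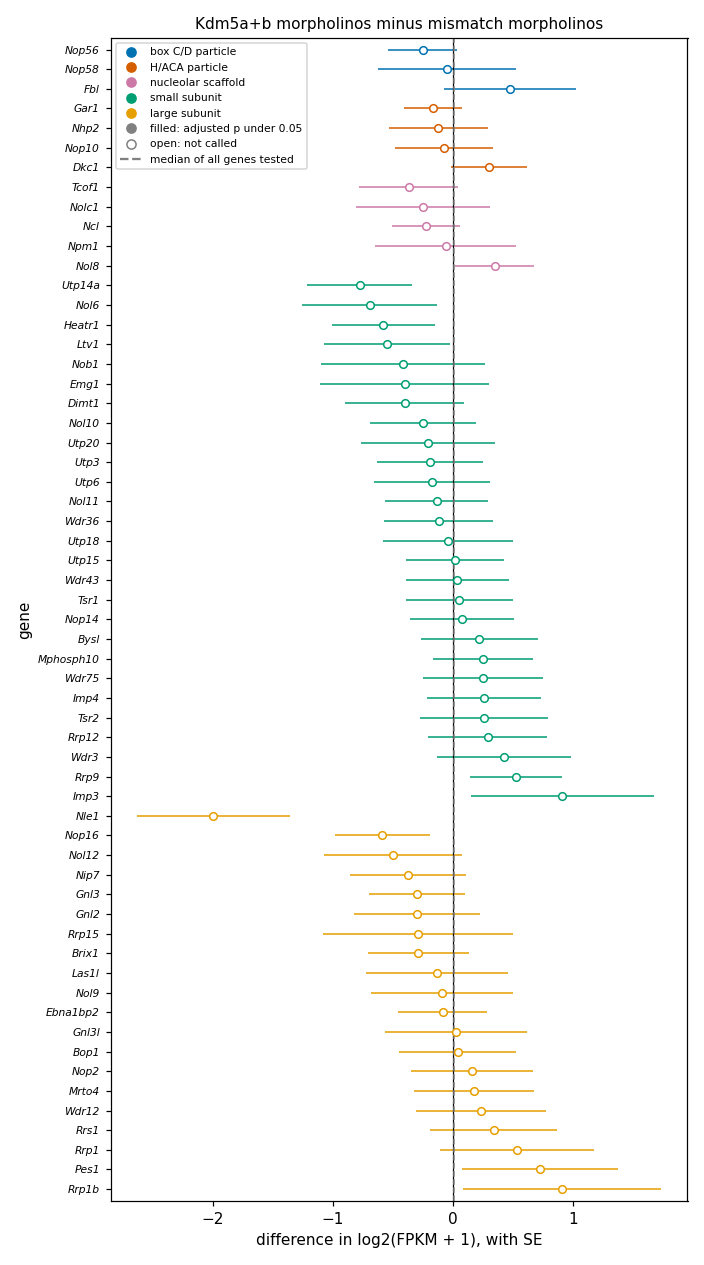
Difference in log2(FPKM + 1), Kdm5a+b morpholinos minus mismatch morpholinos, for each member with its SE, grouped by class; no point is filled because none passed the limma test. Points lie on both sides of 0, from -1.99 for Nle1 to 0.91 for Imp3.

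The 2 mismatch libraries differed from each other over most members. Mismatch replicate 1 was above replicate 2 in 50 of the 59 members (84.7%), against 57.0% of all genes tested, and the summed member level was 1918 FPKM in replicate 1 and 1486 FPKM in replicate 2. With the Kdm5a+b morpholinos the sums were 1620 and 1635 FPKM. The part of this difference in the results above was not tested, other than by leaving out each library.

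Injected embryos were also set beside wild type. Injection, the morpholinos themselves and any batch cannot be told apart in this comparison. No member was called after Kdm5a+b injection or with mismatch morpholinos against wild type, where limma called 1 gene higher (0.00761%) and none (0%) of all genes tested. Unadjusted p was under 0.05 in 6 members for the Kdm5a+b morpholinos and 3 for mismatch morpholinos, beside 858 and 616 of all genes. The 2 comparisons share the wild-type libraries. There were 6 members (10.2%) that were lower in all 4 injected libraries than in all 3 wild-type libraries, as were 4.10% of genes tested, and they were Bop1, Heatr1, Imp4, Nhp2, Nop10 and Wdr75. One member (1.69%), the small subunit factor gene Bysl, was higher in all 4, as were 4.12% of genes tested. Wdr75 had the smallest p in both, with differences of -1.56 (SE 0.46, limma adjusted p = 0.56) for the Kdm5a+b morpholinos and -1.81 (SE 0.46, limma adjusted p = 0.857) for mismatch morpholinos.

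Bop1 came next, at 5.76 and 3.29 FPKM after Kdm5a+b injection and 5.76 and 3.07 FPKM with mismatch morpholinos, against 10.4, 13.5 and 14.5 FPKM in wild type. Imp4 was at 130 and 184 FPKM after Kdm5a+b injection and 166 and 101 FPKM with mismatch morpholinos, against 253, 316 and 212 FPKM in wild type. These genes were picked out after their values were seen, and none of them passed the adjusted test.

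Other genes of the pathway were taken from lists of textbook members. Of 27 further small subunit factors, 20 were lower with alpha-amanitin than in wild type and none higher, with a median difference of -2.55. Of 30 further large subunit factors 21 were lower and none higher (median -2.79), beside the median of -0.56 over all genes tested. Among all genes tested, 25.1% were lower and 4.31% higher. Rsl1d1, which encodes a nucleolar protein related to ribosomal protein L1, was not called, at 163 and 216 FPKM with alpha-amanitin and 165, 199 and 214 FPKM in wild type (-0.03, SE 0.21, limma adjusted p = 0.934). Of 10 tested genes listed with the assembly of small nucleolar particles, 6 were lower and none higher. They included Znhit3, at 0.112 and 3.20 FPKM with alpha-amanitin against 29.8, 36.8 and 74.1 FPKM in wild type, and Znhit6, at 0.495 and 0.158 FPKM against 12.1, 20.2 and 17.4 FPKM.

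Among 12 genes that govern transcription of ribosomal DNA, 9 were lower and 1 higher with alpha-amanitin, beside 25.1% and 4.31% of all genes tested. Ubtf, which encodes the factor that keeps ribosomal genes open, was at 1.18 and 2.91 FPKM with alpha-amanitin, against 37.9, 26.8 and 28.7 FPKM in wild type (-3.44, SE 0.36, limma adjusted p = 5.26e-05). Taf1d, a subunit of the polymerase I selectivity factor, was at 2.13 and 3.92 FPKM with alpha-amanitin, against 74.2, 78.7 and 74.2 FPKM in wild type (-4.29, SE 0.28). Max, the partner of Myc on the E-box, was called higher instead, at 309 and 326 FPKM with alpha-amanitin, against 69.9, 58.8 and 85.5 FPKM in wild type (2.15, SE 0.23). Max was at 145 and 128 FPKM after Kdm5a+b injection and 94.2 and 119 FPKM with mismatch morpholinos. Mycn was called lower, listed at 0 in both alpha-amanitin libraries against 9.95, 6.10 and 4.55 FPKM in wild type. Myc was not called, at 0.0385 FPKM and listed at 0 with alpha-amanitin, against 2.25, 1.26 and 0.776 FPKM in wild type. In the comparison of Kdm5a+b morpholinos with mismatch morpholinos none of these 4 lists had a gene called.

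The embryo label was checked with marker lists. All 8 genes on the list of 2-cell embryo markers, such as Zscan4d and Zfp352, were lower with alpha-amanitin, where Tdpoz3, Tdpoz4 and Ubtfl1 were listed at 0 in both libraries. The sums were 188 and 335 FPKM against 627, 928 and 777 FPKM in wild type. They were mostly Dppa3, at 185 and 330 FPKM with alpha-amanitin and 439, 708 and 534 FPKM in wild type, so they say little of the other genes listed. Zfp352 was at 1.77 and 3.05 FPKM with alpha-amanitin, against 92.0, 79.3 and 99.4 FPKM in wild type. The 9 oocyte markers summed to 955 and 1047 FPKM with alpha-amanitin and 616, 494 and 602 FPKM in wild type, and 1 of them, Bmp15, was called higher. Markers of cumulus cells summed to at most 4.94 FPKM in any library, of sperm to at most 5.96 FPKM, with Prm1 listed at 0 in all, and of blood to at most 7.87 FPKM, with Hbb-bs and Hbb-bt listed at 0 in all. Oviduct markers reached 65.0 FPKM, mainly through Epcam, which embryos also express. Epcam (-5.01, limma adjusted p = 2.04e-05) and the cumulus marker Tnfaip6 (-1.57, limma adjusted p = 0.0456) were called lower with alpha-amanitin. The part of these sums in the results was not tested. Depth in reads is unknown, but the deposited bounds of the member FPKM had a median half-width of 33.2% and 34.3% in alpha-amanitin libraries, 8.3% and 9.9% after Kdm5a+b injection, 7.5% and 10.2% with mismatch morpholinos and 12.1% to 13.5% in wild type. Only members with a lower bound above 0 entered these widths, 48 in each alpha-amanitin library and 50 to 56 in the others. Members whose bounds reached 0 are left out of them. In 20 of the 59 members the locus in the files overlaps another gene, and reads from both strands may be pooled there, so values of Nhp2, Dkc1, Nop56, Imp4, Bop1, Emg1 and 14 others carry that uncertainty. How reads shared with processed copies elsewhere in the genome were counted is not given in the sources used here.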

How the data were processed

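RNA-seq of 9 libraries of late 2-cell mouse embryos was used, 2 labelled alpha-amanitin, 2 Kdm5a+b morpholino, 2 mismatch morpholino and 3 wild type. Per the labels' protocols, RNeasy Micro columns gave the RNA and TruSeq chemistry the libraries. Per the submitters' processing notes, the build was mm10, and the series used SAMtools, Trimmomatic, Cufflinks, BWA, Picard and Bismark 12.5. The aligner of the RNA reads, with its settings, and the release of the annotation, is not given in the sources used here. Per the file headers, the authors deposited 1 table per library with the FPKM of 32287 genes and its bounds. FPKM divides by each library's own total, so each level depends on all transcripts of that library. Counts are not in these files and depth is unknown.

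The test was limma (version 3.58.1, under R 4.3.3), applied to log2(FPKM + 1) of 13137 genes at 1 FPKM or more in at least 2 of 9 libraries. All 59 members passed this filter. One fit held all 4 groups, with a trend in the variance, and calls needed p under 0.05 after Benjamini-Hochberg adjustment across the 13137 genes. Whether replicates stem from separate collections is not stated in the labels, so the p-values speak to library-to-library spread, and this may be technical. The labels give no batch or date for them.

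Members and lists were chosen with earlier results of these data known. Genes given library by library are, in each class, the 3 with the highest wild-type mean and the 2 called genes with the largest fall with alpha-amanitin, all members not called there, the 3 with the smallest p between the morpholino groups, and fixed paralog pairs and complexes. Nop2, Nol11, Utp15, Nob1 and Wdr75 were added after their values were seen. Alternatives were pseudocounts of 0.1 and 5, no filter, TPM, quantile normalization, no variance trend, library weights, fits of only the groups compared, replicate number as a block, and leaving out each library. Promoter windows are RefSeq sequences, read in windows of 250 bases before and 50 after each start.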

Additional observations from a re-analysis of the deposited data

How the results depend on the processing

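Counts of members called lower with alpha-amanitin against wild type ran from 34 with quantile normalization to 49 with a pseudocount of 0.1, beside 46 as reported, and from 42 to 46 when a library was left out. Quantile normalization lost the calls of Bysl, Dkc1, Gnl3l, Ltv1, Nob1, Nol6, Rrp15, Tcof1, Tsr1, Utp15, Wdr36 and Wdr43. Leaving out a library lost the call of Bysl, Dkc1, Gnl3l, Ltv1, Nob1, Nol6, Rrp15 or Utp15, and of no other member. Gnl3l also lost its call with a pseudocount of 5, with no filter, and without either alpha-amanitin library or wild-type replicate 1. Against mismatch morpholinos the count of 47 fell to 28 with quantile normalization and to 31 with only the 2 groups fitted, and ran from 31 to 48 when a library was left out. The count of members called was 0 in the 3 comparisons of injected or wild-type libraries under every alternative run.

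The size of the class medians depended on the scale. For alpha-amanitin against wild type, a pseudocount of 0.1 gave -4.27 for the large subunit, -3.33 for H/ACA, -2.86 for the small subunit and -3.04 for box C/D. A pseudocount of 5 gave -1.78, -2.02 and -1.35 for the first 3, quantile normalization -1.96, -2.41 and -1.39, and TPM -3.52 for the large and -2.55 for the small subunit. Leaving out a library gave -3.31 to -2.79 for the large and -2.47 to -2.12 for the small subunit. For alpha-amanitin against mismatch morpholinos, the pseudocount of 0.1 gave -4.15, -3.13 and -2.67 for the large subunit, H/ACA and the small subunit, that of 5 gave -1.63, -1.92 and -1.15, and quantile normalization -1.99, -2.23 and -1.34. TPM gave -3.50 and -2.53 for the large and small subunit, and leaving out a library -3.11 to -2.42 for the large subunit. For mismatch morpholinos against wild type, leaving out a library gave -0.38 to 0.30 for the large subunit, -0.475 to -0.057 for H/ACA and -0.018 to 0.82 for the scaffold genes.

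Some genes that were not called changed sign. With quantile normalization the differences were 0.51 for Dimt1, 0.033 for Gnl2, 0.43 for Nol10, 0.029 for Nol8, 0.34 for Pes1, 0.43 for Utp18 and 0.65 for Utp20. When a library was left out, Nol10 ran from -0.82 to 0.44, Utp18 from -1.33 to 0.30, Utp20 from -0.96 to 0.23 and Tsr2 from -0.26 to 0.46. Tsr2 was also at -0.09 without wild-type replicate 1. The cause was not tested for any of these, other than that a larger pseudocount shrinks differences of low genes by construction.

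Libraries with the same replicate number did not deviate together (correlations from -0.048 to 0.041 across genes), so the numbers were not taken as pairs. With replicate number as a block, 43 members were called lower with alpha-amanitin against wild type.

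With 2 or 3 libraries a group and no counts, small changes cannot be seen, nor can absolute RNA amounts be read from FPKM. Wide bounds in the alpha-amanitin libraries limit the precision of their low values.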
